A study of Mus musculus with 2 samples.

Results

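The 10 genes described here encode the core of the Notch pathway: the receptors *Notch1*, *Notch2*, *Notch3* and *Notch4*, the ligands *Jag1*, *Jag2* and *Dll1*, the DNA-binding protein *Rbpj*, and the target genes *Hes1* and *Hey1*. They were taken by name from 30133 genes on the array, and they hold 14 of its 39429 probes. Skin RNA of newborn mice on a C57BL/6N background was measured at postnatal day 0. *Pnpla1*+/+ (wild type) littermates served as controls for *Pnpla1*-/- (knockout) pups, which carry a germ line disruption of the gene for the lipid enzyme PNPLA1, not limited to the epidermis. RNA of 6 animals was pooled for each genotype, amplified, labelled with the dye Cy3 and hybridized to 1 Agilent oligonucleotide array per genotype. With 1 array per genotype there is no replicate, so that no test between the genotypes was possible and each difference describes these 2 pools.

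Notch signalling passes between neighbouring cells. A ligand of the Jagged or Delta-like family on the surface of a cell binds a Notch receptor on the next cell, the receptor is cut by a metalloprotease and then by the γ-secretase complex, and its intracellular domain enters the nucleus. There it joins RBPJ and a Mastermind protein on DNA and turns on genes of the HES and HEY families, which encode transcriptional repressors. In epidermis the pathway is known for the commitment of basal keratinocytes to the spinous layer, and it also acts in hair follicles, blood vessels and the smooth muscle and pericytes around them.

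Each intensity below is the deposited background-subtracted signal. Each difference is the log2 of *Pnpla1*-/- over *Pnpla1*+/+ after division by the 75th percentile of the array, which was 2108 in *Pnpla1*+/+ and 1734 in *Pnpla1*-/- skin. Where a pair of intensities is given, the wild-type value comes first. The scanner software gives each spot an error estimate that is close to 10% of a bright signal. For a single bright spot this comes to 0.20 on a difference, and it covers the measurement, not the variation between mice. *Pnpla1* itself was at 579 in wild-type and 114 in knockout skin, a difference of −2.07, in the direction of the labels. Keratinocyte markers were bright on both arrays, with *Krt5* at 220487 and 210699 and *Krt10* at 277989 and 262540 in *Pnpla1*+/+ and *Pnpla1*-/- skin, as the labelled tissue would hold. The pools also differed in sex-linked genes. *Xist* had a difference of 1.12 and the Y-linked *Ddx3y* of −2.19, and the part of this in the values below was not tested.

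None of the 10 members reached a 2-fold difference in either direction with the scaling used here. For comparison, 9.73% of the 22382 genes that could be compared lay past 2-fold, 6.69% on the higher and 3.04% on the lower side. All 10 members were well above background on both arrays at their brightest probe. In whole skin, fewer cells of a type and less RNA per cell cannot be told apart, and this holds for every value below. The differences ran from −0.63 for *Hey1* to 0.53 for *Notch3*, with 5 above and 5 below 0. Their median of 0.013 lay next to that of all genes, 0.0026, and their median size without sign, 0.30, was close to that of all genes, 0.28. At 1.5-fold, *Hey1* was the only member past the threshold, on the lower side, where 9.34% of all genes lay, and 23.2% of all genes passed it in either direction. The differences of *Notch3* and *Hey1* were more than 2 times the error estimate of a single spot. Those of *Notch2*, *Rbpj* and *Dll1* lay within it, and the *Dll1* value is a mean over 10 spots.

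**Figure D1:**
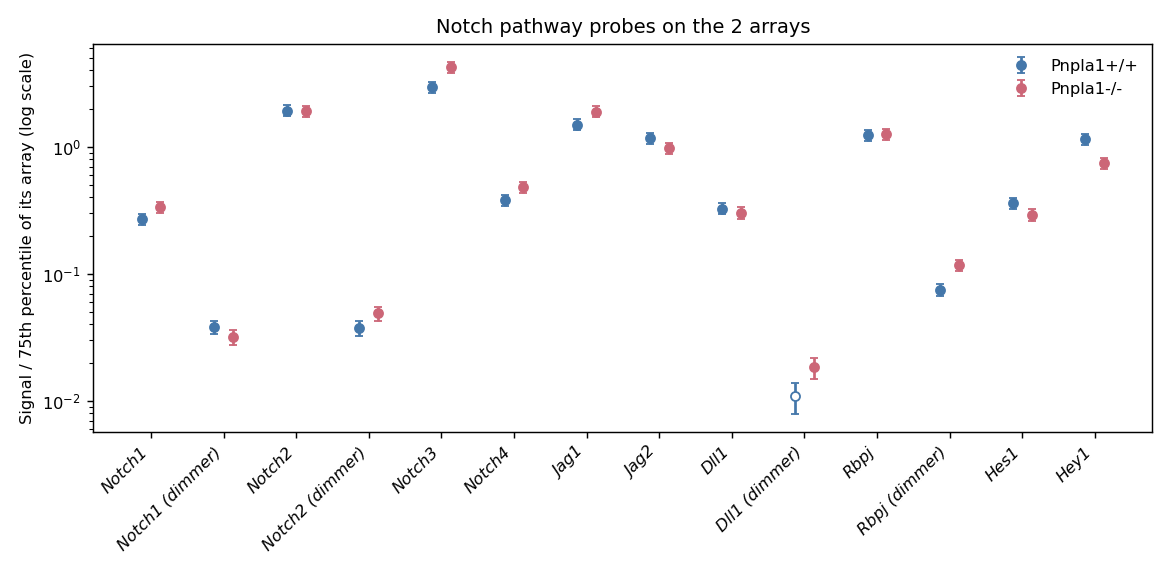
Signal of each member's probes on both arrays, divided by the 75th percentile of the array, on a log axis. Points are 1 probe each, bars are the deposited error estimate, and an open point is not well above background. The pairs of points lie close together for every gene, with *Notch3* at 2.96 and 4.27 and *Hey1* at 1.16 and 0.748 in *Pnpla1*+/+ and *Pnpla1*-/- skin.

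Of the receptors, *Notch3* had the largest difference with the scaling used here. *Notch2* was larger in size with no scaling, at −0.30 against 0.25 for *Notch3*. The same held with spike-in centring (described below), at −0.49 against 0.05. NOTCH3 is best known from the smooth muscle and pericytes of small vessels and is also present in epidermis. Its probe, on chromosome 17 of mm9 (chr17:32257848-32257907), was at 6240 in wild-type and 7397 in knockout skin, a difference of 0.53, and 84.5% of all genes had a lower difference. *Notch4*, which is largely an endothelial receptor (chr17:34725120-34725179), was at 802 and 837, a difference of 0.34. *Notch1*, the receptor most closely tied to the basal to spinous switch, was at 569 and 579 at its brighter probe, a difference of 0.31. *Notch2* (chr3:97953914-97953973) was at 4075 and 3321, a difference of −0.014. The raw intensities of *Notch1* and *Notch4* were nearly equal on the arrays, so that their differences come almost wholly from the scaling.

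Of the ligands, *Jag1* and *Jag2* differed in opposite directions, except with spike-in centring (described below), where both were below 0. Both are Jagged ligands of keratinocytes. *Jag1* (chr2:136907433-136907492) was at 3162 in wild-type and 3286 in knockout skin, a difference of 0.34. *Jag2* (chr12:114146887-114146946) was at 2472 and 1689, a difference of −0.27. With no scaling *Jag1* was at 0.06, so that, as for *Notch1* and *Notch4*, most of its difference comes from the scaling. The gap between the differences of the Jagged ligands was 0.60, with an error estimate of 0.29. A gap of this kind is not moved by any scaling with 1 factor per array, and it lay between 0.54 and 0.60 under the 14 alternative settings tried.

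*Dll1*, a Delta-like ligand of basal keratinocytes and their stem cells, was the only member with repeated spots and so gives a direct view of the spread between spots. Its probe (chr17:15504623-15504682) was spotted 10 times. In *Pnpla1*+/+ skin the spots ran from 638 to 744 with a median of 690, and in *Pnpla1*-/- skin from 498 to 578 with a median of 523, so that the raw intensities did not overlap. After scaling they ran from 0.303 to 0.353 and from 0.287 to 0.333, and overlapped. The mean difference was −0.11, with an SD of 0.05 over spots, and all 10 spots lay below 0. The spots are repeats on the same 2 arrays and say nothing of the spread between mice or of the error between arrays. Under the 14 alternatives the *Dll1* difference ran from −0.59 to −0.02.

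*Rbpj*, the DNA-binding partner of all 4 receptors, was at 2592 in wild-type and 2190 in knockout skin at its brighter probe (chr5:54048503-54048562), a difference of 0.04 that lay well within the error estimate.

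The target genes were both lower in *Pnpla1*-/- skin, in all 14 alternatives. *Hey1*, a repressor of the HEY family (chr3:8663432-8663491), was at 2442 in wild-type and 1297 in knockout skin, a difference of −0.63, or 1.55-fold lower, and 8.15% of all genes had a still lower difference. *Hes1*, the HES repressor of spinous keratinocytes (chr16:30067820-30067879), was at 759 and 507, a difference of −0.30, or 1.23-fold lower. Each rests on 1 probe with 1 spot. Alternatives that change only the choice or filter of probes, or keep flagged spots, could not move them. Within the same arrays, the difference of *Hey1* lay 1.16 below that of *Notch3* (error estimate 0.29) and 0.94 below that of *Notch1*. *Notch3* and *Hey1* are the highest and lowest members, and the receptor closest to *Hey1* was *Notch2*, at −0.014. The *Notch3* gap kept its sign in all 14 alternatives and nowhere exceeded 1.16, while the *Notch1* gap narrowed to 0.37 with the dimmer *Notch1* probe.

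**Figure D2:**
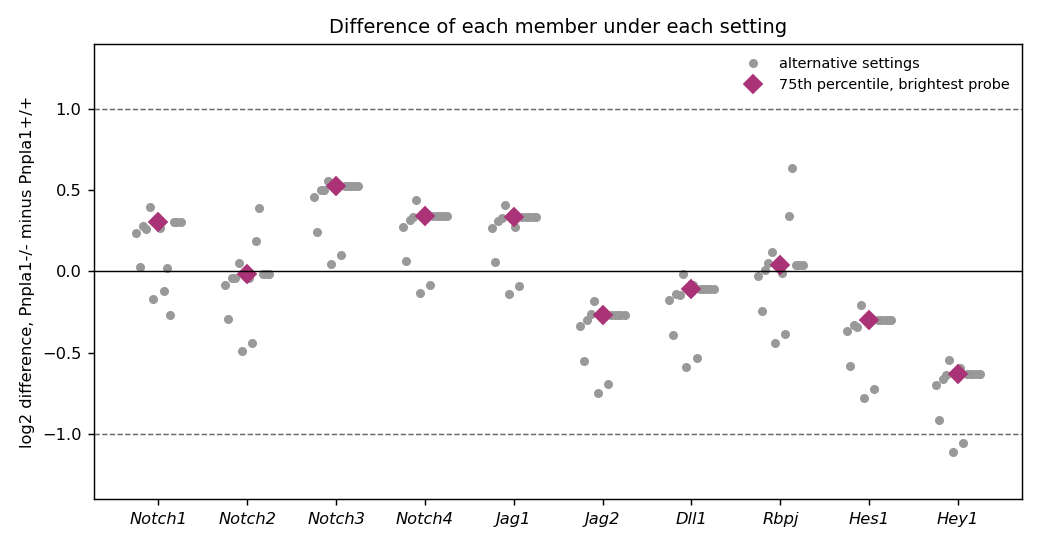
log2 difference of each member, *Pnpla1*-/- minus *Pnpla1*+/+. Diamonds are the value reported, grey points the 14 alternative settings, and dashed lines mark 2-fold. *Notch3*, *Jag2*, *Dll1*, *Hes1* and *Hey1* kept their side of 0 in all settings, while *Notch1*, *Notch2*, *Notch4*, *Jag1* and *Rbpj* crossed it in at least 1.

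The direction of 5 members, *Notch1*, *Notch2*, *Notch4*, *Jag1* and *Rbpj*, depended on the setting. Centring on the spike-in RNA, which is added to each sample before labelling and was higher on the *Pnpla1*-/- array by 0.48 after the scaling used here, moved every gene down by that amount. It put *Notch4* and *Jag1* at −0.14 each, *Notch1* at −0.17 and *Notch3* at 0.05. In the same setting *Hey1* was at −1.11, the only member past 2-fold, where 11.2% of all genes were at least 2-fold lower.

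Probes of the same gene did not always give the same difference. *Notch1*, *Notch2* and *Rbpj* each had a pair of probes well above background on both arrays, and the 60-base probes that lie nearer the 5′ end of the transcript are shown because they gave the higher difference in all 3 genes. They are written 5′ to 3′ on the strand of the transcript, as the array design gives them, with no part capitalized.
Notch1 (chr2:26319440-26319499 of mm9, minus strand): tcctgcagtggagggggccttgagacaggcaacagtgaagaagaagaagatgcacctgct
Notch2 (chr3:97951233-97951292 of mm9, plus strand): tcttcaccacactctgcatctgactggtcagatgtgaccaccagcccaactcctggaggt
Rbpj (chr5:54044777-54044836 of mm9, plus strand): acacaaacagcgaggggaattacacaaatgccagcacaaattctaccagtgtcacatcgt

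The *Notch1* probe shown gave 0.31, while the probe 4810 bases further towards the 3′ end gave −0.27 at intensities of 80.7 in wild-type and 55.3 in knockout skin. For *Notch2* the probe shown was dim, at 78.6 and 84.7, and gave 0.39 against −0.014. For *Rbpj* it was also dim, at 158 and 203, and gave 0.64 against 0.04. The probes nearer the 5′ end were thus higher by 0.57, 0.40 and 0.60, with error estimates of 0.33, 0.33 and 0.30. Over all 2191 genes with such a pair of probes 1000 to 10000 bases apart, the same gap had a median of 0.05 and was above 0 in 56.3% of genes, and it was 0.4 or more in 14.3%. In *Notch1*, *Notch2* and *Rbpj* the probe nearer the 5′ end was also richer in G and C. It held 55%, 55% and 45% against 40%, 41.7% and 35%, so that position and base content cannot be told apart. In *Dll1* the other probe was dim, at 22.9 in wild-type and 31.8 in knockout skin, where alone it passed the background. With the scaling used here it was at least 1.62-fold higher there, a bound of 0.69 with an error estimate of 0.48. This is the opposite direction to the 10 spots of the brighter probe. No stretch over 11 bases was shared between probes of different members. Matches of a probe to the transcripts of other members were not searched.

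The rest of the pathway was described from lists of genes grouped by role, 63 genes in all, of which 61 had a difference. Past 2-fold were 1 on the higher side, *Dtx3l*, and 1 on the lower side, *Heyl*, against 6.69% and 3.04% of all genes. Their median was −0.07. With spike-in centring 1 was past 2-fold higher and 6 past 2-fold lower, against 3.56% and 11.2% of all genes.

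The genes of the HES and HEY families outside the members, and *Nrarp*, are called targets here. Whether Notch induces each of them in skin was not tested, and they held the largest lower difference. *Heyl*, the HEY family gene known from vascular smooth muscle, was at 1930 in wild-type and 595 in knockout skin, a difference of −1.42, or 2.67-fold lower. *Hes5*, a further Notch-induced HES repressor, was at 771 and 322, a difference of −0.97. *Hey2* was dim, at 96.8 and 50.7, with a difference of −0.65. *Hes6*, at −0.29, and *Hes2*, at −0.24, were also below 0, and all 5 of these kept their side of 0 in the 14 alternatives. *Nrarp*, which feeds back on the receptor's intracellular domain, and *Hes7* were at 0.04 and 0.02, values that crossed 0 with the scaling, and *Hes3* was above background on neither array. With *Hes1* and *Hey1*, 7 of the 9 measured targets were below 0, against 49.8% of all genes, with a median of −0.30. At least 1.5-fold lower were 4 of the targets, against 9.34% of all genes. The median of the targets outside the members was below 0 in all 14 alternatives, from −0.77 to −0.17. The −0.77 came with spike-in centring, where the median of all genes was itself −0.48. The −0.17 came with normexp background correction, where that of all genes was 0.05.

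RBPJ binds DNA at sites with the core TGGGAA. The promoter set used here holds the 250 bases before the start of genes in RefSeq (GRCm38.p6), but not of every gene. In it this core was found on either strand in 21.6% of 32851 promoter entries. Of the 8 members with an entry, only *Rbpj* held it. *Hes1*, *Hey1*, *Heyl*, *Hes2* and *Hes3* had no entry in this promoter set, so their promoters were not searched. Of 5 other target genes with an entry it was found in *Hes5*, *Hes7* and *Hey2*, and not in *Hes6* and *Nrarp*. The windows of *Hes5* and *Hey2* are shown because these targets held the core and were below 0 on the arrays. The sequences run 5′ to 3′ on the strand of the gene and end at the base before its start, and capitals mark the core on either strand.
Hes5 (chr4:154960673-154960922 of GRCm38.p6, plus strand): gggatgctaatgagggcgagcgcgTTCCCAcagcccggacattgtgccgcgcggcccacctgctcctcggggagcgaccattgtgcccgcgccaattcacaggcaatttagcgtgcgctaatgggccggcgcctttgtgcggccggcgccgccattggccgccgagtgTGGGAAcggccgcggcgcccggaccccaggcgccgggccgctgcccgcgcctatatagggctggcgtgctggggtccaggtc
Hey2 (chr10:30842784-30843033 of GRCm38.p6, minus strand): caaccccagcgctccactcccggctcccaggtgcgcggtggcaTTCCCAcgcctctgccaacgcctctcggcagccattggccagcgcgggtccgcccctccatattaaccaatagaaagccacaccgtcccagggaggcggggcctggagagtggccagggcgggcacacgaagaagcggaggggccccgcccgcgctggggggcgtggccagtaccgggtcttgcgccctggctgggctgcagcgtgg

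The *Hes5* window held the core at 226 and 82 bases before the start, on opposite strands, and the *Hey2* window held it at 207. *Hes7* also held the core and had a difference of 0.02, while *Hes6* did not hold it and was at −0.29. The windows shown were picked in part by their differences, so that a link between a match and the signal was not tested. A match of these letters is a description of the window and not of binding.

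Among the enzymes that act on the receptors, the proteases and the glycosyltransferases differed from gene to gene. Of the 9 measured genes of receptor cleavage, 8 were above 0, with a median of 0.29 that became −0.19 with spike-in centring. *Adam17*, a metalloprotease that can cut Notch, was at 117 in wild-type and 162 in knockout skin, a difference of 0.75, and its other probe gave 0.74. *Furin*, the convertase that processes the receptor precursor, had a difference of 0.69 at intensities of 7699 and 10213. *Aph1b*, a subunit of γ-secretase, had −0.78 at its brightest probe, but 2 other probes gave 0.29 and 0.32. Of the 5 genes of receptor glycosylation, *Lfng*, the Fringe enzyme that shifts receptors towards Delta-like ligands, was lowest, at 975 in *Pnpla1*+/+ and 428 in *Pnpla1*-/- skin, a difference of −0.91. Its relative *Rfng* was highest, at 9886 and 12062, a difference of 0.57. Both kept their direction in all 14 alternatives.

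Regulators of turnover held the largest higher difference among these 63 genes. *Dtx3l*, a ubiquitin ligase of the Deltex family that is also known as an interferon-responsive gene, was at 741 in wild-type and 1821 in knockout skin, a difference of 1.58, or 2.99-fold higher, and its other probes gave 1.48 and 2.13. *Numb*, an inhibitor of Notch, was at 0.55 and its relative *Numbl* at −0.48, the lowest of the 10 genes of this list. The median of the list was −0.16. Of the 6 other ligands, *Dll4*, the endothelial Delta-like ligand, was highest, with a difference of 0.44 at the dim intensities of 105 and 117. *Dner*, at 42.7 and 5.36, passed the background in wild-type skin alone, and was at least 1.62-fold higher there, a bound of −0.69 on the log2 scale that was −0.02 with normexp background correction.

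Cofactors in the nucleus and genes of the ligand-bearing cell had medians near 0. The 8 coactivators had a median of −0.06 and ran from −0.20 for *Maml2*, of which another probe gave 0.31, to 0.19 for *Maml3*. The 12 corepressors had a median of −0.013 and ran from −0.45 for *Hdac2*, averaged over 10 spots, to 0.79 for the dim *Tle4* at 130 and 185. The 4 genes of ligand endocytosis ran from −0.10 for *Mib2* to 0.41 for *Neurl1b*. None of these genes reached 2-fold.

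**Figure D3:**
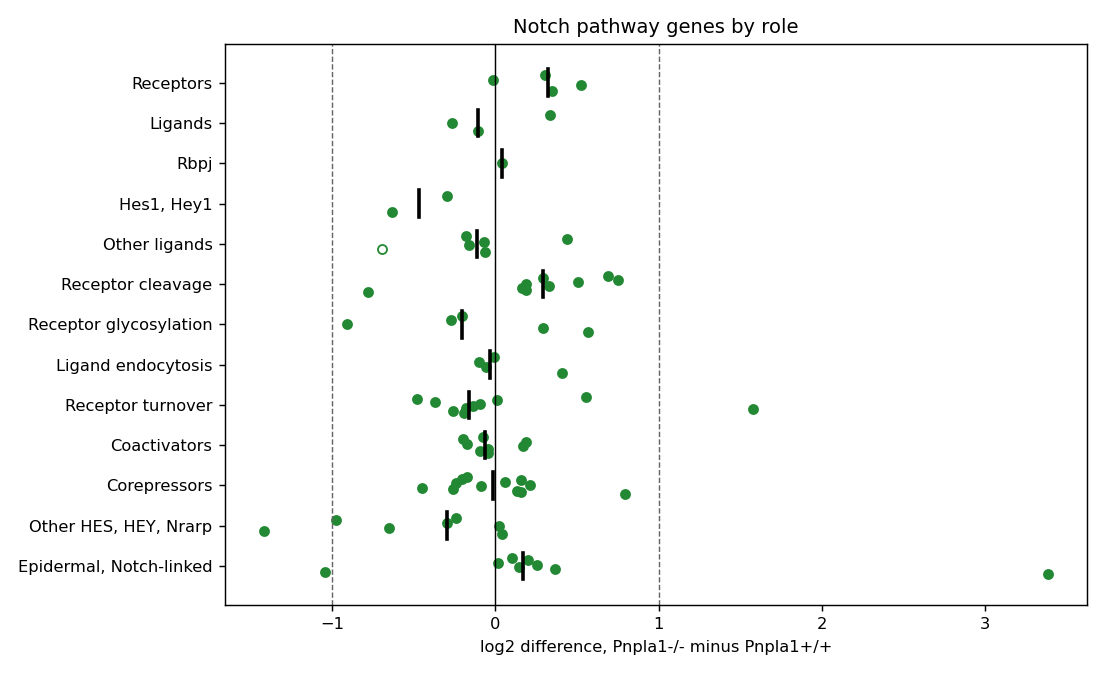
log2 difference of Notch pathway genes by role, *Pnpla1*-/- minus *Pnpla1*+/+. Points are genes, an open point is a bound for a gene above background on 1 array, bars are medians and dashed lines mark 2-fold. Most genes lie between the dashed lines, with *Dtx3l* at 1.58, *Heyl* at −1.42, *Ccnd1* at −1.04 and *Tslp* at 3.39 outside them.

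The 8 epidermal genes of a further list are tied to Notch in the literature in either direction, some as induced and some as repressed by it or higher when it is lost. Among them the spinous layer genes differed little. *Krt10* had a difference of 0.20, *Krt1* of 0.10 and *Ivl*, which encodes involucrin, of 0.02. *Trp63*, the regulator of basal keratinocytes, which Notch represses, was at 0.14 at its brightest probe, but its 3 other probes ran from −0.26 to −0.15. *Cdkn1a*, a cell cycle inhibitor, was at 0.26 over 10 spots, and its 2 other probes gave 0.58 and 0.81. *Myc* was at 0.37. The values of all 6 of these genes at the brightest probe were below 0 with spike-in centring. Of the 8 genes, 1 was past 2-fold higher, *Tslp*, and 1 past 2-fold lower, *Ccnd1*, against 6.69% and 3.04% of all genes. *Tslp*, a cytokine released by keratinocytes of damaged skin and known to be higher where epidermal Notch is lost, was at 50.6 in wild-type and 435 in knockout skin, a difference of 3.39, or 10.5-fold higher, and it stayed between 2.29 and 3.39 in the alternatives. *Ccnd1*, which encodes cyclin D1, was at 15941 and 6355, a difference of −1.04, or 2.06-fold lower.

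Markers of the cell types in skin, those that use the pathway among them, were read on the same arrays. Their summed signals are given unscaled, as intensities, and the array of the knockout skin was dimmer as a whole. Hair follicle markers were below 0 in 9 of 10 genes, with *Foxn1* at 0.52 the exception, with a median of −0.98. At least 2-fold lower were 5 of them, against 3.04% of all genes, and 9 with spike-in centring, against 11.2% of all genes. Their summed signal went from 189342 in *Pnpla1*+/+ to 80908 in *Pnpla1*-/- skin, with *Krt71*, a keratin of the inner root sheath, the brightest at 84119 and 39193, and none was below background. These markers were lower together with *Hes5*, *Heyl*, *Hey1*, *Lfng* and *Ccnd1*, and their part in those values was not tested. Leukocyte markers had a median of 0.84, with 5 of 10 at least 2-fold higher against 6.69% of all genes. With spike-in centring the median was 0.36 and 2 passed 2-fold, against 3.56% of all genes. The list had a summed signal of 40269 and 55131 and *Csf1r* the brightest at 14484 and 18988. Their part in the value of *Dtx3l* or *Tslp* was not tested.

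Markers of vessels were set beside *Notch3*, *Notch4*, *Dll4* and *Heyl*, and their part in those values was not tested. The 10 endothelial markers had a median of 0.30, which became −0.18 with spike-in centring, and summed signals of 53970 and 52130, with *Egfl7* the brightest at 26513 and 26816. After scaling the sums differed by 0.23, the other way from the intensities. The differences of *Notch4*, at 0.34, and *Dll4*, at 0.44, lay in the range of these markers, from −0.10 to 0.61. The 8 markers of mural cells, the smooth muscle cells and pericytes around vessels, had a median of 0.11, or −0.37 with spike-in centring, and summed signals of 33490 and 27703, with *Acta2* the brightest at 17717 and 14353, and the scaled sums differed by 0.0082. *Notch3*, at 0.53, lay above all 8 mural markers. Its gap to the highest of them, *Myh11* at 0.43, was within the error estimate of 0.29 for a gap between single spots. *Heyl*, at −1.42, lay below all 8, which went down to −0.37. All endothelial and mural markers were well above background on both arrays.

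Keratinocyte markers did not share a direction. The 9 basal markers had a median of −0.05 but ran from −1.67 for *Krt15* to 1.35 for *Krt14*, with *Krt5* the brightest. The 6 suprabasal markers had a median of 0.27, or −0.21 with spike-in centring, and ran up to 1.20 for *Dsc1*, with *Dmkn* the brightest at 190901 and 192637. *Krt77*, which passed the background in wild-type skin alone, was at least 4.58-fold higher there, a bound of −2.20 on the log2 scale that was −0.94 with normexp background correction. The basal list summed to 434755 and 399215 and the suprabasal list to 409897 and 396995 in *Pnpla1*+/+ and *Pnpla1*-/- skin. After scaling the direction turned, to differences of 0.16 and 0.24 in the sums. No basal marker was below background.

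The other cell types were read in the same way. The 8 fibroblast markers had a median of −0.16, or −0.64 with spike-in centring, with 1 at least 2-fold lower (3.04% of all genes) and 2 with spike-in centring (11.2%), summed signals of 740780 and 568946 and *Col1a2* the brightest. The 5 melanocyte markers had a median of −0.38, summed signals of 60317 and 39099 and *Dct* the brightest. Skeletal muscle, with 6 markers, had a median of −0.02, summed signals of 503080 and 435236, which differed by 0.07 after scaling, and *Myl1* the brightest. In these lists every marker was well above background on both arrays. Of 5 adipocyte markers, *Lep* was below background on both arrays, and the other 4 had a median of 0.08, with *Adipoq* the brightest. All 5 summed to 54812 and 55581.

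**Figure D4:**
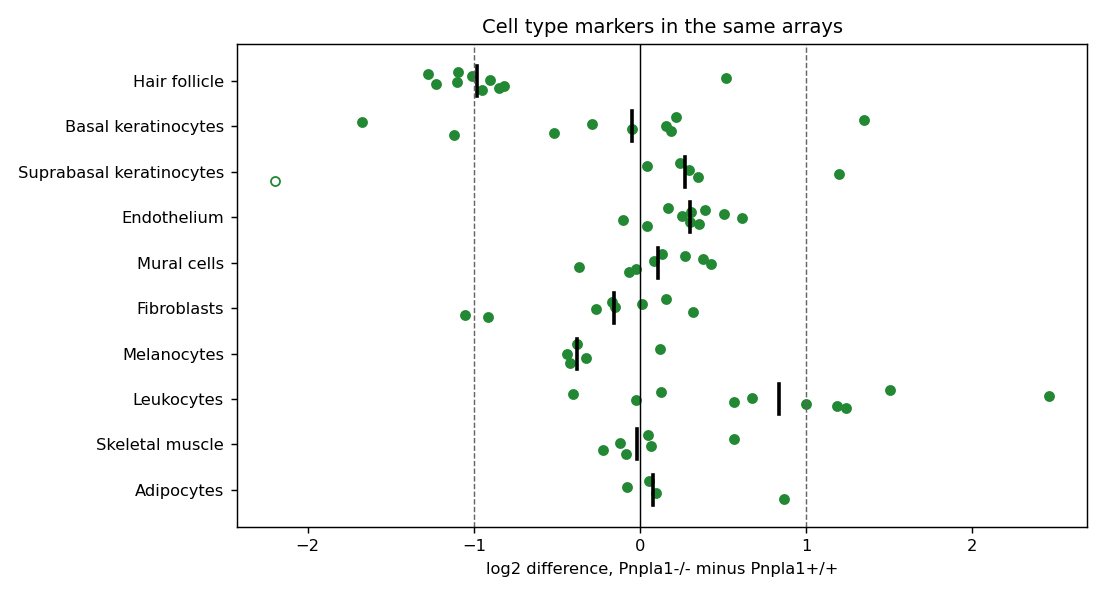
log2 difference of cell type markers, *Pnpla1*-/- minus *Pnpla1*+/+. Points are genes, an open point is a bound, bars are medians and dashed lines mark 2-fold. Hair follicle markers lie mostly near −1, leukocyte markers reach 2.46 and endothelial and mural markers stay between −0.37 and 0.61.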

How the data were processed

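Total RNA of newborn skin, pooled from 6 mice per genotype, was hybridized to 1 array each, on 1 slide read in 1 scan, so that array position and genotype cannot be told apart. Images were read with Agilent Feature Extraction 11.5.1.1 per the submitters' processing notes. The files deposited by the authors give every spot's intensity on a linear scale (background-subtracted and detrended, not scaled between arrays), its error estimate, the mean signal, the local background and 0 or 1 flags per spot, which count here as other values per the file headers. They also deposited a table of ratios, in which each intensity is divided by a constant of its array (2109 for wild type, 1734 for knockout), whose medians were 0.106 and 0.111. Probe coordinates are those of the files (mm9).

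Spots flagged as outliers on either array were left out (138 and 82 were flagged), and log2 intensities were set against the 75th percentile over all 43020 spots other than controls, of which 71.7% and 73.3% were well above background and 0 saturated. Repeated spots were averaged, and a gene was represented by its brightest probe measured on both arrays. For a gene above background on 1 array a bound was used, in which the dim array takes the lowest signal above background or, if brighter, the probe's own. Genes were named through RefSeq for 31456 of 39429 probes, and otherwise as in the files. The SD of spot differences, the median over 309 probes with at least 8 spots, was 0.04, or 0.08 with spots unpaired. The number of arrays limits the precision.

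Members and gene lists were chosen with earlier results of these data known. Named genes were all members, the genes of each pathway list that were at least 2-fold different or had the highest or lowest difference, and the brightest or undetected markers. The remaining targets, epidermal genes and markers named, *Furin* and *Numb* were chosen after their values were seen. A gene was left out of the epidermal list and is not reported here. Spike-in centring on only the probes above background and the comparison of probe positions were added after values had been seen, as was the error of spot differences without pairing. Python 3.11.15, numpy 2.4.6, pandas 2.3.3 and, for quantile, cyclic loess and normexp (offset 50) alternatives, limma 3.58.1 in R 4.3.3 were used. The calculation was tested on simulated data.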

Additional observations from a re-analysis of the deposited data

How the results depend on the processing

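No paired analysis was possible because each genotype has 1 array, and for the same reason no replicate could be left out. No member was at least 2-fold higher under any of the 14 alternative settings of the calculation or at 1.5-fold or 3-fold, and the number at least 2-fold lower was 0 except for 1, *Hey1*, with both forms of spike-in centring and at 1.5-fold, against 11.2% of all genes with all spike-in probes and 9.34% at 1.5-fold. The median of the members, 0.013, was −0.057 with scaling by the median, −0.27 with no scaling, 0.084 with cyclic loess, −0.47 with centring on all 10 spike-in probes and −0.41 with the 8 of them above background, 0.10 with all measured probes of a gene averaged and 0.11 with the dimmest measured probe. By construction the scalings with 1 factor move all genes alike, and the median of all genes went to −0.28 with no scaling, to −0.48 and −0.43 with the spike-in forms and to 0.10 with no filter on dim probes. Of the genes past 2-fold, 68.7% were higher in knockout skin, against 41.2% with no scaling, 24.1% with spike-in centring and 58.8% with quantile normalization. Of the values for single members and lists under the alternatives, 232 moved by less than the SD of spot differences and 174 by more. For a gene with 1 measured probe, alternatives that change only the choice or filter of probes return the same value by construction. The deposited ratios use nearly the same constants as the scaling used here, and both kinds count among the 14. Dim probes, such as those of *Hey2*, *Dll4* and *Dner*, limit what can be said of their genes.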
